A study of Mus musculus with 7 samples.

Results

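Calcium pumps, sodium/calcium exchangers, the calcium buffer parvalbumin and the ryanodine receptors were examined in ribosome-bound mRNA of Purkinje cells, the output neurons of the cerebellar cortex. The 10 genes were taken by symbol as a list of function (*Atp2a2*, *Atp2a3*, *Atp2b1*, *Atp2b2*, *Atp2b3*, *Slc8a1*, *Slc8a2*, *Pvalb*, *Ryr1* and *Ryr2*), out of 55401 genes in the count files. All 10 were present and all 10 passed the filter on low counts. The mRNA came from cerebella of 3 wild-type mice and 4 mice homozygous for *nm3888*, a spontaneous mutation of the transcription factor gene *Rreb1*, with 1 mouse per library and all mice 3 weeks old. Both genotypes also carried the RiboTag allele (*Rpl22* fl/+) and PCP2-Cre, which drives recombination in Purkinje cells, so that ribosomes of these cells bear an HA tag and can be pulled down with their mRNA. The library names form a first series (wild type 1 and 2, mutant 1 and 2, all female) and a second series (wild type 3, female, and mutants 3 and 4, male), so in the mutants sex and series cannot be told apart.

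Purkinje cells fire continuously and receive climbing fiber input that floods their dendrites with calcium, which makes calcium clearance a central task of this cell type. Calcium is pumped back into the endoplasmic reticulum by SERCA pumps, pushed out of the cell by plasma membrane pumps (PMCA) and by exchangers that trade it for sodium, and bound in the cytosol by buffers such as parvalbumin and calbindin. It is let out of the store again by IP3 receptors and ryanodine receptors. The counts measure mRNA on tagged ribosomes and not protein, pump activity or calcium.

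The total counts per library ranged from 18023017 (mutant 1) to 107937386 (wild type 3), and levels are given as CPM, counts scaled by library total and TMM factor to a common total. *Rreb1* mRNA, counted over all its transcripts, had a mean of 16.5 ± 1.81 CPM (SD) over the 3 wild-type mice and of 18.5 ± 5.46 CPM over the 4 mutants. The difference was 0.20 on the log2 scale (SE 0.23, adjusted p = 0.64 by edgeR's quasi-likelihood test), so the labels were not borne out by a fall of this mRNA. The study reports that the main *Rreb1* transcript, named *V7*, was lost on Northern blots of mutants. By RT-PCR of mutant cerebellum it reports *V7* as much reduced, and the transcripts *X2* and *X4* as comparable to wild type. It also reports no in situ signal in the mutant brain with a probe for all transcripts. The ribosome-bound counts showed no such loss, and the reason was not tested. The 14 Purkinje markers were the highest of the cell type lists in every library, with a summed level of 43082 to 57167 CPM, against 524 to 1365 CPM for 13 granule cell markers, 94.0 to 203 CPM for 10 interneuron and Golgi cell markers, 434 to 685 CPM for 11 Bergmann glia and astrocyte markers, 502 to 1224 CPM for 9 oligodendrocyte markers, 32.4 to 72.3 CPM for 9 endothelial and mural markers and 7.87 to 22.5 CPM for 10 microglial markers. *Aif1* was the only marker at 0 counts, in 1 library. *Pcp2*, the source of the Cre promoter, had a log2 fold change of 0.27 (adjusted p = 0.257 by edgeR's quasi-likelihood test), *Calb1*, which encodes calbindin, 0.10 (adjusted p = 0.718 by the same test), and the median over the Purkinje markers was 0.08. The medians over the markers of granule cells (0.51), interneurons and Golgi cells (0.44), Bergmann glia and astrocytes (0.64), oligodendrocytes (0.53), microglia (0.63) and endothelial and mural cells (0.21) were all above 0. By the same edgeR test 2 of 11 Bergmann glia and astrocyte markers (*Gfap* and *Ntsr2*) and 2 of 9 oligodendrocyte markers (*Cnp* and *Cldn11*) were called higher and 1 of the former (*Hopx*) lower, all named after their values were seen, which stands beside 8.54% of all tested genes called. At an unadjusted p under 0.05 were 6 of the 11 and 7 of the 9, against 23.6% of all tested genes, and DESeq2 called 5 and 4 of them, against 11.3% of the genes it tested. In the lists of Purkinje, granule, interneuron and Golgi, microglial and endothelial and mural cells 0 were called, with 0, 5, 6, 5 and 3 markers at an unadjusted p under 0.05 and 0, 1, 1, 1 and 2 called by DESeq2.

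None of the 10 genes was called higher or lower in the mutant. By edgeR's quasi-likelihood test with library series as a term and an adjusted p under 0.05 (Benjamini-Hochberg over all 17621 tested genes), 0 were higher and 0 were lower, against 2.58% of all tested genes higher, 5.95% lower and 8.54% in either direction. At an unadjusted p under 0.05, 1 of the 10 passed (*Ryr1*), against 23.6% of all tested genes, and DESeq2 called 1 of the 10 (also *Ryr1*), against 11.3% of the genes it tested. In none of the 10 did the CPM of the 2 genotypes separate without overlap, which 14.1% of all tested genes did. The fold change was above 0 for 5 genes and below 0 for the other 5, and their median log2 fold change was 0.07, against 0.03 over all tested genes. The 95% intervals of the 10 genes ran from 0.563-fold to 2.04-fold, and so include changes of up to that size in single genes. In these bulk samples fewer cells of a type and less mRNA per cell cannot be told apart.

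**Figure D1:**
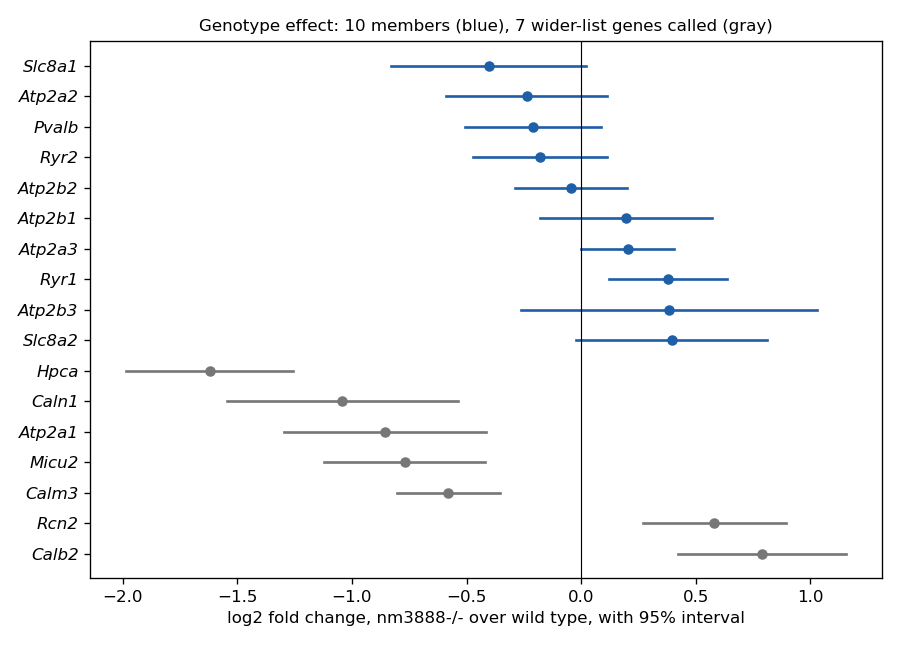
Log2 fold change of nm3888-/- over wild-type Purkinje cells with its 95% interval, for the 10 genes (blue) and for the 7 called genes of a wider calcium list (gray). Of the blue intervals, that of *Ryr1* alone lies wholly above 0, from 0.12 to 0.64, and *Hpca* lies lowest at −1.62.

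The pumps are recognized by a motif that is shared by all of them. SERCA and PMCA pumps are P-type ATPases, which pass the phosphate of ATP to an aspartate in the amino acid motif DKTGT during each cycle. The coding sequences around this motif are shown for 3 of the pumps because the RNA-seq counts must tell these related genes apart. They were read from GENCODE transcripts of the mouse genome build mm10, in an earlier release than the one used for the counts. The longest reading frame among the transcripts of each gene was taken. The 5 codons of the motif are in capitals, and codons are counted from the start codon.

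*Atp2a3*, codons 346 to 360, aspartate at 351: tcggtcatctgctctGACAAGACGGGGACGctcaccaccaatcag
*Atp2b1*, codons 470 to 484, aspartate at 475: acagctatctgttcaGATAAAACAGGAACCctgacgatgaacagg
*Atp2b2*, codons 494 to 508, aspartate at 499: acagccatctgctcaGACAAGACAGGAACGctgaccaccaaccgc

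No 2 of these 3 stretches were identical. The longest stretch that was identical between coding sequences was 44 bases for *Atp2a2* and *Atp2a3*, 56 bases for *Atp2b2* and *Atp2b3*, 35 bases for *Ryr1* and *Ryr2* and 26 bases for *Slc8a1* and *Slc8a2*, each shorter than the 100-base reads. Over aligned bases the identity was 70.2%, 78.0%, 68.1% and 67.8% in the same order.

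The levels of the 10 genes in the ribosome-bound mRNA of wild-type mice formed 2 tiers. Divided by the length of the counted gene model (CPM per kb, mean ± SD, n = 3), *Pvalb* was at 2523 ± 595, *Atp2a2* at 817 ± 16.2, *Atp2a3* at 493 ± 57.5 and *Atp2b2* at 355 ± 23.4, and no neighbors in this order overlapped. The other 6 genes lay far lower, with *Slc8a2* at 5.37 ± 0.48, *Slc8a1* at 4.36 ± 0.68, *Atp2b1* at 4.34 ± 0.21, *Atp2b3* at 3.92 ± 0.58, *Ryr1* at 2.07 ± 1.20 and *Ryr2* at 1.49 ± 0.20 CPM per kb. In this tier *Slc8a1* overlapped *Atp2b1*, *Atp2b1* overlapped *Atp2b3*, and *Ryr1* overlapped *Ryr2* across the wild-type libraries. The mutants had the same 4 genes in the upper tier in the same order, with *Atp2a2* at 705 ± 141 and *Atp2a3* at 580 ± 47.9 CPM per kb (n = 4), and these now overlapped. In the lower tier of the mutants every neighboring pair overlapped. The order within each tier depends on the division by length, while the 2 tiers do not. In undivided CPM the wild-type means put *Atp2a2* (4969) and *Atp2b2* (4473) above *Pvalb* (2627) and *Atp2a3* (2602). They also put *Slc8a1* (82.0) above *Slc8a2* (28.3). In the lower tier these means ran from 18.9 (*Atp2b3*) to 82.0 CPM (*Slc8a1*). The 13 granule cell markers summed to 524 to 639 CPM in the wild types. The part of other cell types in the lower-tier levels, and in the shares built on them, was not tested.

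**Figure D2:**
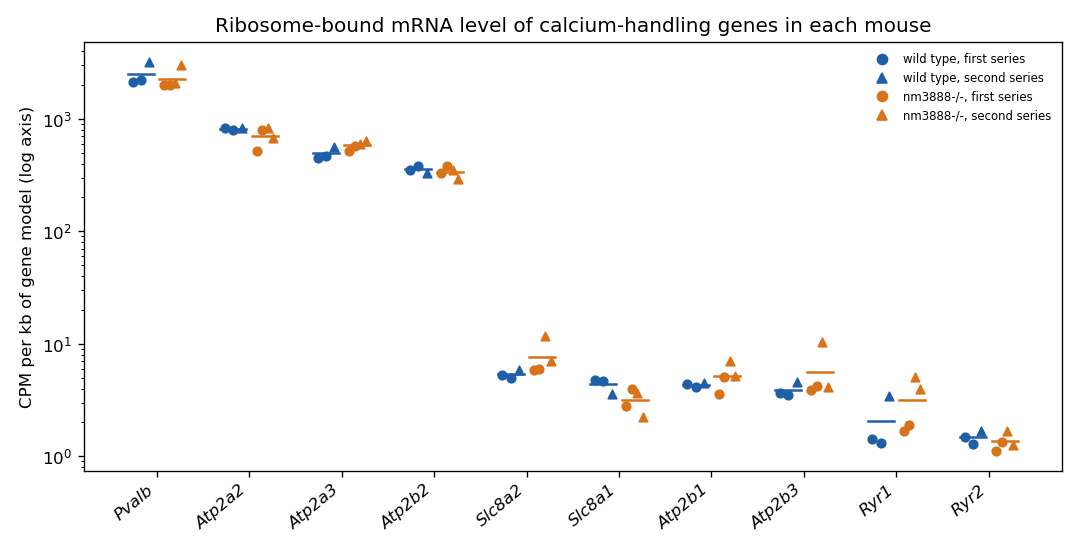
Level of each gene per mouse in CPM per kb of gene model on a log axis, wild type in blue and nm3888-/- in orange, circles for the first and triangles for the second library series, with horizontal lines at the group means. *Pvalb*, *Atp2a2*, *Atp2a3* and *Atp2b2* lie above the other 6 genes in every mouse, and *Ryr1* lies higher in all second-series libraries than in all first-series libraries.

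The SERCA pumps refill the endoplasmic reticulum store. *Atp2a2* (ENSMUSG00000029467.15, chromosome 5 from 122453513 to 122502225) encodes SERCA2, the most widespread form of the pump. Its CPM was 4994, 4861 and 5052 in wild types 1 to 3 and 3162, 4854, 5048 and 4094 in mutants 1 to 4. The wild-type libraries lay close together, mutant 3 lay within their range, mutant 2 just below it, and mutants 1 and 4 well below it. The log2 fold change was −0.24 (SE 0.15, 95% interval −0.59 to 0.11, adjusted p = 0.398 by edgeR's quasi-likelihood test), that is a change of −15.1% with an interval from −33.5% to 8.23%. *Atp2a3* (ENSMUSG00000020788.15, chromosome 11 from 72961169 to 72993044) encodes SERCA3, a pump with lower calcium affinity that is prominent in Purkinje cells among neurons. Its CPM was 2380, 2477 and 2948 in wild types and 2753, 3009, 3124 and 3361 in mutants. Every mutant lay above the wild type of its own series, while mutant 1 lay below wild type 3. This gave a log2 fold change of 0.20 (SE 0.09, 95% interval −0.00028 to 0.41, adjusted p = 0.212 by edgeR's quasi-likelihood test).

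The shares of the 2 SERCA genes did not overlap between the genotypes. *Atp2a3* made up 35.4, 37.0 and 40.1% of the summed SERCA level (per kb, with *Atp2a1*) in wild types 1 to 3, and 50.0, 41.6, 41.6 and 48.6% in mutants 1 to 4. All 4 mutants lay above all 3 wild types, with mutants 2 and 3 closest to wild type 3, and the mean difference was 7.95 points. *Atp2a2* made up the rest, 62.4 ± 2.44% in wild type (SD, n = 3) and 54.5 ± 4.49% in mutants (SD, n = 4). The exact permutation test over libraries (two-sided) gave p = 0.0571 for *Atp2a3*, the smallest p that 35 arrangements of 3 against 4 libraries allow, so the design could not reach 0.05. These share tests carry no term for library series. Adjusted over the 13 shares tested in 4 families the exact p was 0.338, and *Atp2a3* and its complement *Atp2a2* were the only shares without overlap, where 14.1% of all tested genes had none in CPM. The summed SERCA level was 1311 ± 69.1 CPM per kb in wild type and 1286 ± 169 CPM per kb in mutants (exact permutation p = 1).

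**Figure D3:**
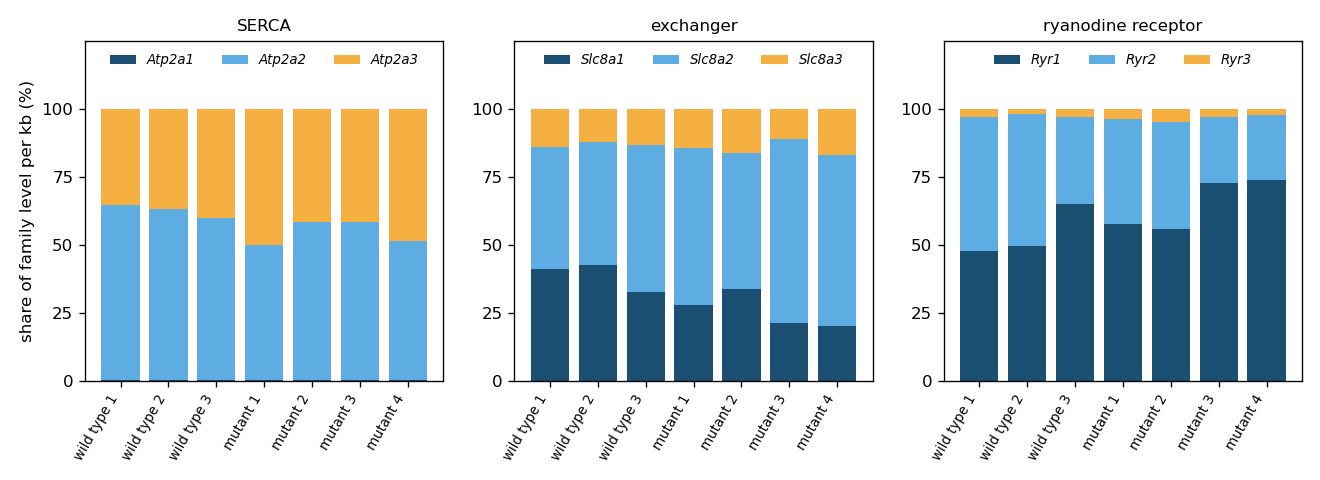
Share of each gene in its family's summed level per kb (%, stacked bars to 100) in each of the 7 mice, for SERCA pumps, sodium/calcium exchangers and ryanodine receptors. The *Atp2a3* part of the SERCA bar ranges from 35.4 to 40.1% in wild types and from 41.6 to 50.0% in mutants, and the *Ryr1* part of the right-hand panel is larger in the second series (wild type 3, mutants 3 and 4).

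The PMCA pumps export calcium across the plasma membrane. *Atp2b2* (ENSMUSG00000030302.16, chromosome 6 from 113743831 to 114042613) encodes PMCA2, the fast pump of Purkinje dendrites and spines, whose loss makes mice ataxic. It dominated its family, with 97.5 ± 0.349% of the summed PMCA level in wild type and 96.6 ± 1.19% in mutants. Its CPM was 4442, 4782 and 4194 in wild types and 4141, 4837, 4426 and 3652 in mutants. The groups overlapped, with mutant 3 within the wild-type range, mutant 2 above it, mutant 1 just below it and mutant 4 the lowest library. The genotypes differed by −0.05 on the log2 scale (SE 0.11, 95% interval −0.29 to 0.20, adjusted p = 0.839 by edgeR's quasi-likelihood test), with an interval in percent from −18.1 to 14.7.

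The minor PMCA genes were in the lower tier. *Atp2b1* (ENSMUSG00000019943.10, chromosome 10 from 98914406 to 99026143) encodes PMCA1, the housekeeping form, and was at 67.2, 62.5 and 68.4 CPM in wild types and 54.9, 77.4, 106 and 78.7 CPM in mutants. The mutants spread to both sides of the wild types, with mutant 3 highest and mutant 1 lowest, and the log2 fold change was 0.19 (SE 0.16, adjusted p = 0.527 by edgeR's quasi-likelihood test). *Atp2b3* (ENSMUSG00000031376.15, chromosome X from 73503086 to 73571005) encodes PMCA3, which in the brain is found in granule cell output among other places. Its CPM was 17.7, 16.9 and 22.1 in wild types and 18.8, 20.3, 50.3 and 20.0 in mutants. Mutant 3 stood apart from all other libraries, and the other 3 mutants lay within the wild-type range. With all libraries the log2 fold change was 0.38 (SE 0.28, adjusted p = 0.462 by edgeR's quasi-likelihood test), and without mutant 3 it was 0.07.

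In mutant 3 the granule cell markers were also high. Their summed level was 1365 CPM in that library against 524 to 757 CPM in the other 6, which is a log2 ratio of 1.10 over wild type 3, where *Atp2b3* was at 1.19, *Slc8a2* at 0.99, *Atp2b1* at 0.64 and *Ryr1* at 0.56. The other 6 genes lay between −0.61 (*Pvalb*) and 0.08 (*Atp2a3*) in that library. The part of these cells in the levels of the 4 genes was not tested. In mutants 1, 2 and 4 the granule marker sum was 0.29, 0.35 and 0.25 above the wild types of the same series on the log2 scale.

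**Figure D4:**
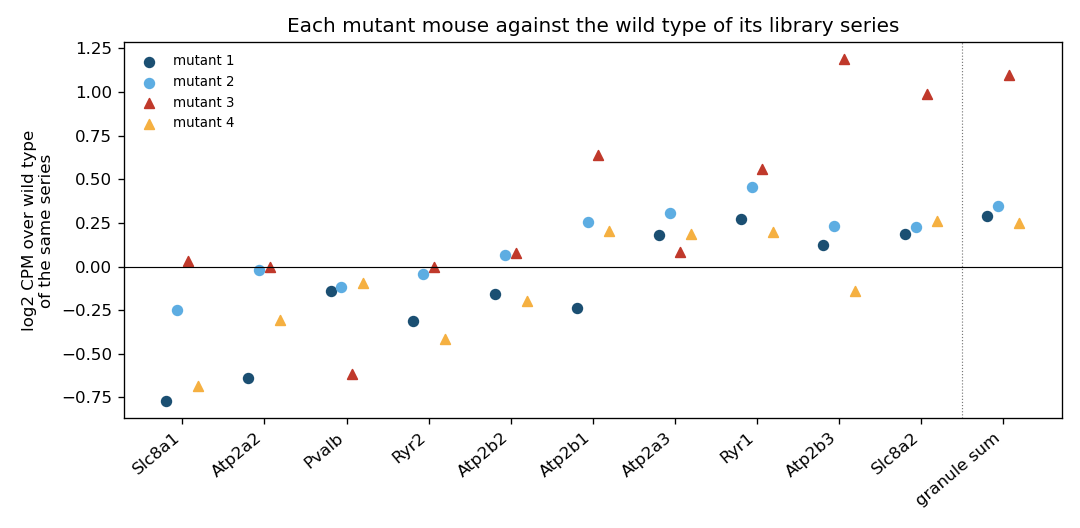
Log2 CPM of each mutant library over the mean wild-type CPM of its own library series, for the 10 genes ordered by fold change and for the sum of 13 granule cell markers. Mutant 3 (red triangles) is the highest mutant for the granule sum (1.10) and for every gene but *Pvalb* and *Atp2a3*, by little for *Atp2a2*, *Ryr2*, *Atp2b2* and *Ryr1*, and *Atp2a3*, *Ryr1* and *Slc8a2* are above 0 in all 4 mutants.

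The sodium/calcium exchangers remove large calcium loads in trade for sodium. *Slc8a1* (ENSMUSG00000054640.15, chromosome 17 from 81373105 to 81738377) encodes NCX1, the main exchanger of the heart. Its CPM was 90.3, 88.4 and 67.3 in wild types and 52.3, 75.04, 68.85 and 41.8 in mutants. Mutants 1, 2 and 4 lay below the wild type of their own series and mutant 3 just above it, and the groups overlapped between 67.3 and 75.04 CPM. The mutants differed by −0.40 on the log2 scale (SE 0.19, 95% interval −0.83 to 0.02, adjusted p = 0.235 by edgeR's quasi-likelihood test), with an interval in percent from −43.7 to 1.41. *Slc8a2* (ENSMUSG00000030376.8, chromosome 7 from 16129826 to 16161063) encodes NCX2, a neuronal exchanger. Its CPM was 27.7, 26.1 and 31.0 in wild types and 30.6, 31.4, 61.6 and 37.2 in mutants. All 4 mutants were above the wild type of their series, and mutant 1 was below wild type 3. For this exchanger the log2 fold change was 0.39 (SE 0.18, 95% interval −0.02 to 0.81, adjusted p = 0.238 by edgeR's quasi-likelihood test), and it was 0.23 without mutant 3.

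*Slc8a1* made up 40.98, 42.7 and 32.8% of the summed exchanger level per kb in wild types 1 to 3 and 27.7, 33.6, 21.2 and 19.9% in mutants 1 to 4. Only mutant 2 reached the wild-type range, by passing wild type 3, and within each series both mutants lay below every wild type. The mean share was 38.8 ± 5.30% in wild type (SD, n = 3) and 25.6 ± 6.34% in mutants (SD, n = 4). The exact permutation test (two-sided) gave p = 0.114, and 0.338 when adjusted over 13 shares. The smallest p that this test allows here is 0.0571, so no share could be called by it. It also sets the series aside, so it cannot decide whether the share differed between the genotypes. *Slc8a2* held 48.0 ± 5.22% in wild type and 59.8 ± 7.49% in mutants (exact permutation p = 0.114). *Slc8a3*, the gene of the exchanger NCX3, held the rest, at 7.12 to 8.81 CPM in wild types and 7.60 to 10.3 CPM in mutants. Without division by gene length *Slc8a1* held more than *Slc8a2* in every library. Its share was then 63.5 to 72.7% in wild types and 47.0 to 64.3% in mutants, against 21.5 to 29.3% and 26.9 to 43.8% for *Slc8a2*.

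Parvalbumin is a cytosolic protein that binds calcium with EF hands and shortens calcium transients. Its mRNA from *Pvalb* (ENSMUSG00000005716.16, chromosome 15 from 78191114 to 78206400) was the most abundant of the 10 per kb. Its coding sequence has 110 codons, and the 2 loops that hold calcium in the protein are shown, because they are what makes it a buffer, with the codons of the first aspartate and the last glutamate in capitals.

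*Pvalb*, codons 52 to 63: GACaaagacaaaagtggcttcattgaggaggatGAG
*Pvalb*, codons 91 to 102: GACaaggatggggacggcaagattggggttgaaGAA

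*Pvalb* was at 2220, 2321 and 3340 CPM in wild types 1 to 3 and at 2065, 2091, 2181 and 3123 CPM in mutants 1 to 4. Each mutant lay below the wild type of its own series, while mutant 4 lay above wild types 1 and 2. The log2 fold change was −0.21 (SE 0.13, 95% interval −0.51 to 0.09, adjusted p = 0.371 by edgeR's quasi-likelihood test), with an interval in percent from −29.6 to 6.07. Molecular layer interneurons use the same gene, and the summed level of 10 interneuron and Golgi cell markers was 112, 94.0 and 203 CPM in wild types and 108, 103, 151 and 144 CPM in mutants. The marker sum was higher in all second-series libraries, and *Pvalb* was higher in wild type 3 and mutant 4 but not in mutant 3. The part of these cells in the *Pvalb* level was not tested.

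The ryanodine receptors release calcium from the store when calcium itself or a voltage sensor opens them. *Ryr1* (ENSMUSG00000030592.18, chromosome 7 from 29003344 to 29125179, 109 exon blocks) is the receptor of skeletal muscle and also the form known from Purkinje cells. Its CPM was 31.2, 28.9 and 75.3 in wild types and 36.3, 41.25, 111 and 86.5 in mutants. Every mutant was above the wild types of its series, but mutants 1 and 2 were below wild type 3, so the groups overlapped across the series. This was a log2 fold change of 0.38 (SE 0.11, 95% interval 0.12 to 0.64), or 30.1% with an interval from 8.80 to 55.5%. The unadjusted p was 0.00902 and the adjusted p was 0.0782 by edgeR's quasi-likelihood test, while DESeq2 gave a log2 fold change of 0.39 with an adjusted p of 0.0398.

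*Ryr1* differed more between the library series than between the genotypes. Second-series over first-series CPM was 1.33 in wild type and 1.35 in mutants on the log2 scale, against −0.41 to 0.56 in wild type and −0.20 to 0.85 in mutants for the other 9 genes. The wild-type ratios rest on wild type 3 alone in the second series. That series also had more counts per library and came from a folder named for the aligner STAR. Series, aligner and depth cannot be told apart. Within the first series alone the genotype effect on *Ryr1* was 0.37 (adjusted p = 0.189 by edgeR's quasi-likelihood test) and within the second series 0.40 (adjusted p = 0.402 by the same test). With sex as the term in place of series, which places wild type 3 with the first series, the value turned to −0.22. The genes whose log2 CPM followed *Ryr1* most closely over the 7 libraries were *Ctr9* (Pearson's r = 0.999), *Ptk2* (r = 0.997) and *Ep400* (r = 0.997), among 4856 genes with a mean log2 CPM over 5. These correlations describe 7 libraries that share series and depth, and *Ptk2* also stepped up between the series, by less than *Ryr1*, from 60.9 to 73.8 CPM in the first series to 106 CPM (wild type 3) and 125.2 CPM (mutant 3).

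*Ryr2* (ENSMUSG00000021313.16, chromosome 13 from 11553102 to 12106945, 107 exon blocks) is the receptor of the heart and of much of the brain, and it lies 25.7 Mb from *Rreb1* on the same chromosome. Its CPM was 42.5, 37.3 and 48.7 in wild types and 32.1, 38.7, 48.7 and 36.5 in mutants, with broad overlap. For *Ryr2* the log2 fold change was −0.18 (SE 0.13, 95% interval −0.47 to 0.11, adjusted p = 0.446 by edgeR's quasi-likelihood test). *Ryr1* held 47.8 and 49.5% of the summed ryanodine receptor level per kb in wild types 1 and 2, 65.1% in wild type 3, 57.8 and 55.7% in mutants 1 and 2, and 72.7 and 73.97% in mutants 3 and 4. In each series the mutants had the larger *Ryr1* share, the difference over all libraries was 10.9 points, and the exact permutation test (two-sided), which sets the series aside, gave p = 0.229. *Ryr3* was near the floor of this family with 0.989 to 4.09 CPM.

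The genotype effect on the 10 genes was also compared between the series. For none of the 10 was a difference called (0 at an adjusted p under 0.05 by edgeR's quasi-likelihood test of the interaction, and 0 at an unadjusted p under 0.05), against 0.0795% of all tested genes called, and the second series has 1 wild type, which leaves this test little precision. The largest interaction among the 10 was 0.49 for *Atp2b3* (SE 0.56).

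A wider list of 78 other genes of calcium pumping, buffering, release and uptake gave the setting. Of these, 76 were in the files, 66 were tested, 2 were higher, 5 were lower and 59 were not called by edgeR's quasi-likelihood test at an adjusted p under 0.05, and their log2 fold changes had a median of 0.10. The share called, 7 of 66, stands beside 8.54% of all tested genes. With a replicate block in the model instead of the series, where mutant 4 has no partner and so adds nothing to the genotype effect, 0 were higher and 3 were lower, and over all genes 241 were higher and 571 lower in place of 455 and 1049.

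Among other pumps and exchangers 1 of 7 tested genes was lower, beside 8.54% of all tested genes called. This was *Atp2a1*, the gene of the fast-muscle pump SERCA1, at 3.40, 3.09 and 6.38 CPM in wild types and 2.04, 1.997, 2.51 and 3.63 CPM in mutants (log2 fold change −0.86, SE 0.19, adjusted p = 0.0290 by edgeR's quasi-likelihood test). Each mutant was below the wild type of its series, and the gene made up 0.0929 ± 0.0340% of the SERCA level in wild type. *Atp2b4*, the fourth PMCA gene, had a log2 fold change of 0.16 (SE 0.18), *Slc8a3* 0.27 (SE 0.15) and *Ryr3* 0.56 (SE 0.31), none of them called by the same test. Of the 7 tested pumps and exchangers 2 had an unadjusted p under 0.05, against 23.6% of all tested genes. DESeq2 called 1 gene of this group, against 11.3% of the genes it tested.

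The cytosolic buffers and calcium sensors held most of the calls, with 1 higher and 3 lower of 16 tested, beside 8.54% of all tested genes called. At an unadjusted p under 0.05 were 6 of the 16, against 23.6% of all tested genes. DESeq2 called 5 of them, against 11.3% of the genes it tested. *Hpca*, the gene of the neuronal calcium sensor hippocalcin, fell from 233, 185 and 268 CPM in wild types to 86.9, 57.2, 73.5 and 86.8 CPM in mutants (log2 fold change −1.62, SE 0.16, adjusted p = 5.39e-04 by edgeR's quasi-likelihood test), with a wide gap between the genotypes. *Calm3*, one of the calmodulin genes, was at 1189, 1296 and 1495 CPM in wild types and 871, 890, 842 and 996 CPM in mutants without overlap (log2 fold change −0.58, SE 0.10, adjusted p = 0.00882 by the same edgeR test).

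*Caln1*, the gene of the calmodulin-like protein calneuron, was at 354, 617 and 348 CPM in wild types and 185, 316, 150 and 159 CPM in mutants (log2 fold change −1.04, SE 0.22, adjusted p = 0.0223 by edgeR's quasi-likelihood test). *Calb2* encodes calretinin, a buffer that granule cells use. It rose from 16.0, 16.6 and 28.2 CPM in wild types to 23.3, 22.1, 68.1 and 65.3 CPM in mutants (log2 fold change 0.79, SE 0.16, adjusted p = 0.0189 by the same edgeR test), higher in each mutant than in the wild type of its series. The granule marker sum was also higher in each, and close to the size of the *Calb2* difference in mutant 3 but far smaller in mutant 4, where *Calb2* was at 1.20 and the marker sum at 0.25 on the log2 scale over wild type 3. The part of granule cells in this rise was not tested.

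In the store lumen 1 of 8 tested genes was higher, *Rcn2*, which encodes the calcium-binding protein reticulocalbin, at 11.9, 9.02 and 18.7 CPM in wild types and 17.1, 14.5, 25.3 and 29.9 CPM in mutants (log2 fold change 0.58, SE 0.14, adjusted p = 0.0338 by edgeR's quasi-likelihood test). Among the genes of mitochondrial uptake 1 of 8 was lower, *Micu2*, a gatekeeper of the mitochondrial calcium uniporter, at 7.23, 6.09 and 8.21 CPM in wild types and 3.51, 4.29, 5.21 and 4.34 CPM in mutants (log2 fold change −0.77, SE 0.16, adjusted p = 0.0178 by the same edgeR test). Both counts of 1 of 8 stand beside 8.54% of all tested genes called. At an unadjusted p under 0.05 were 2 genes of the store lumen and 3 of mitochondrial uptake, against 23.6% of all tested genes. DESeq2 called 1 and 2 genes of these groups, against 11.3% of the genes it tested. Of the 7 calls in the wider list, 1 (*Hpca*) held whichever of the 7 libraries was left out. Without wild type 3 the other 6 were no longer called, with adjusted p from 0.0910 (*Calb2*) to 0.272 (*Atp2a1*) by edgeR's quasi-likelihood test.

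No gene was called by that test in 3 groups of the list, beside 8.54% of all tested genes called. Of all tested genes 23.6% had an unadjusted p under 0.05, and DESeq2 called 11.3% of the genes it tested. Of 16 tested store release channels and partners 0 were called (6 at an unadjusted p under 0.05, and 1 by DESeq2), with *Car8*, an IP3 receptor binding protein, at 0.10 (SE 0.17) and *Homer3*, a scaffold of these receptors, at 0.15 (SE 0.11) on the log2 scale. Of 5 pump subunits and regulators 0 were called (2 at an unadjusted p under 0.05, and 1 by DESeq2), with *Bsg* at −0.13 (SE 0.11) and *Nptn*, which encodes the PMCA subunit neuroplastin, at −0.34 (SE 0.12). Of 6 genes of store-operated entry 0 were called (0 at an unadjusted p under 0.05, and 0 by DESeq2), with *Saraf* at 0.08 (SE 0.09) and *Orai2*, which encodes a store-operated channel subunit, at −0.21 (SE 0.10).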

How the data were processed

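RNA was isolated from immunoprecipitated ribosomes of cerebella from 3 wild-type and 4 nm3888-/- mice (1 mouse each). The study's methods also give 3 libraries per genotype in a later sentence, and all 4 mutant libraries of the labels were used. The counts deposited by the authors are raw whole-number read pairs per gene. Per the study's methods, reads were deduplicated and trimmed with fastp and aligned to mm10 with Bowtie2. Per the file headers, featureCounts 2.0.1 counted reverse-stranded pairs with both ends mapped on GENCODE M25, and the second series came from a folder named for STAR, so series, aligner and sequencing depth cannot be told apart. Gene symbols were matched for 55141 of 55401 genes.

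Genes were tested with edgeR 4.0.16 (quasi-likelihood test, TMM, filterByExpr by genotype, library series as a term; limma 3.58.1, R 4.3.3) and, as an alternative, DESeq2 1.42.0. The study's methods name batch as a covariate, and the series shown by the library names stood for it. Standard errors came from the F statistic. Shares within families were tested with exact permutation tests over libraries (scipy 1.17.1). The log2 CPM used a pseudocount of 0.5. Scripts were tested on simulated data.

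The genes, lists and tests were chosen with earlier results of these data known. Named were the 10 genes, *Rreb1*, *Pcp2*, *Calb1*, the paralogs of the 10, up to 4 called genes per direction in each group of the wider list (where none was called, the 2 with the highest wild-type level per kb) and the 3 genes closest to the gene with the smallest adjusted p. Same-numbered libraries of the genotypes deviated together (correlations 0.905, 0.947 and 0.955 for numbers 1 to 3), and differently numbered libraries of the same series did so as well (up to 0.958), so the pairing in these numbers includes the series. Some items are not reported here.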

Additional observations from a re-analysis of the deposited data

Results flagged for a closer look

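Among the 4 mutant libraries, 5 of 47 values examined had 1 library set apart from the rest, judged by the gap to its nearest neighbor over the whole range against Dixon's 95% limit for 4 values, and chance sets apart about 1 group in 20. For *Atp2b3* CPM this quotient was 0.953, with mutant 3 high, and for the sum of the granule cell markers it was 0.927, with the same library high. For *Pvalb* CPM it was 0.890, with mutant 4 high. This quotient sets the series aside. Against the wild types of their own series mutants 1, 2 and 4 were at −0.14, −0.12 and −0.10 on the log2 scale for *Pvalb*, and mutant 3 was lowest at −0.61. For *Slc8a3* CPM it was 0.895, with mutant 1 low, and for the sum of the Purkinje cell markers it was 0.892, again with mutant 1 low, the library with the fewest counts.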

How the results depend on the processing

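The 10 genes were recomputed under 16 alternatives. The counts of members called stayed at 0 higher and 0 lower in all of them except DESeq2 (1 higher). Of the 10 members, 8 kept their direction throughout, though single libraries moved their size. The log2 fold change of *Atp2a2* was −0.08 without mutant 1 and −0.39 without mutant 2, that of *Pvalb* −0.11 without mutant 3, that of *Atp2b1* 0.03 without wild type 3, 0.35 without mutant 1 and 0.09 without mutant 3, that of *Atp2b3* 0.18 without wild type 3, that of *Slc8a2* 0.21 without wild type 3 and that of *Slc8a1* −0.27 without mutant 1. *Atp2b2* turned to 0.0054 with sex in place of series, and ranged from −0.10 to 0.0071 when libraries were left out in turn (0.0071 without mutant 1, 0.0026 without mutant 4). *Ryr1* turned to −0.22 with sex in place of series.

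For the wider list, the number higher was 5 with DESeq2, 5 without the filter on low counts, 4 with counts thinned to the smallest library, 1 in the first series alone and 0 without a series term. The number lower was 1 without a series term and 1 in the first series alone. With sex in place of series these were 0 and 0, and with the replicate block 0 and 3. Leaving out libraries gave 1 to 3 higher and 1 to 4 lower.

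Over all genes, the number higher was 794 with DESeq2, 731 without the filter, 58 without a series term, 17 with sex, 241 with the replicate block, 191 in the first series alone and 567 in the second alone. The number lower was 251 without a series term, 85 with sex, 571 with the replicate block, 488 in the first series alone and 493 in the second alone, where more genes were thus higher than lower. Leaving out libraries gave 173 to 434 higher and 426 to 991 lower. Without wild type 3 no wild type is left in the second series, so its fold changes rest on the first series. The causes were not tested. No share within a family could pass 0.05 in this design under any setting, so the shares say nothing about stability.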
